A study of Mus musculus with 18 samples.

Results

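The transcripts of 10 chemokine genes, Cxcl1, Cxcl2, Cxcl3, Cxcl10, Cxcl16, Ccl3, Ccl4, Ccl6, Ccl9 and Ccl28, were followed in eosinophils of the mouse small intestine. They were taken by gene name from the deposited expression table and made up 10 of its 22708 genes. All 10 passed the filter on low values in every comparison. The study sequenced RNA of sorted eosinophils from WT mice and from mice without the aryl hydrocarbon receptor (AHR) or labelled as lacking the AHR repressor (AHRR). AHR is a transcription factor that is switched on by small molecules from diet, microbes and pollutants, and Ahrr is one of its target genes and encodes a repressor of it.

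The groups were WT, Ahr-/- and mice labelled Ahrr-/-, each of strain C57/BL6 and each with 3 female and 3 male samples. The cells were neither cultured nor treated with a ligand. Before sorting, the study removed the epithelium in warm EDTA, digested the tissue with warm collagenase and enriched CD11b+ cells on beads. CD11b+MHC-II-SiglecF+SSChi cells were then sorted by flow cytometry, and RNA was isolated right after. What part this handling had in the transcript levels was not tested. Ahr was deleted in the whole animal, so a difference from WT need not have arisen in the eosinophils themselves. WT and Ahr-/- animals came from separate litters and cages, so litter and cage cannot be told apart from genotype. Ages of single animals were not in the labels, and how the Ahrr-/- line was made was not given in the sources used here. No batch was named, so none could be examined. Samples are called F1 to F3 (female) and M1 to M3 (male) within each genotype.

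Chemokines bind receptors coupled to G proteins and draw leukocytes along a gradient. CXC chemokines of the Cxcl1, Cxcl2 and Cxcl3 type act on Cxcr2 and draw mainly neutrophils, whereas CC chemokines such as Ccl3 and Ccl4 draw monocytes, macrophages and T cells. Many of these genes are induced within hours by NF-kB, a transcription factor of inflammatory signalling, and their mRNAs are short-lived. Eosinophils of the gut wall carry stored granule proteins as well as transcripts of cytokines and chemokines.

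Sequencing was single-ended, and the values were variance-stabilized expression on a log2 scale, in which a difference of 1 is about a doubling for well-detected genes and less than that for low ones. The transformation could be inverted to whole counts. Total counts ranged from 3842977 to 8149200 in WT (median 6022410), from 6581818 to 10284124 in Ahr-/- (median 9647590) and from 8788867 to 12046933 in the samples labelled Ahrr-/- (median 10371556). WT was therefore the shallowest group by median. Counts were lowest for Cxcl1 and Cxcl16, which went down to 13 and 11 in a WT sample, whereas Cxcl2 had 12971 counts or more in every sample.

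Several libraries stood apart. WT F3 and Ahr-/- F3 had reads on 20244 and 19694 genes, against 15146 to 17236 in the other 16 libraries. In the samples labelled Ahrr-/-, F3, M1 and M3 held the highest summed levels of 11 enterocyte marker genes, at 20398, 23523 and 23615 normalized counts. The other 15 samples lay between 3479 and 17098, and WT F1 was the highest of these. Results are therefore also given without these libraries, a choice made after seeing the data.

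The targeted genes were looked at first. Ahr had values of 13.40 to 14.40 in WT (median 13.76), 14.15 to 14.67 in Ahr-/- (median 14.55) and 13.03 to 14.42 in the samples labelled Ahrr-/- (median 13.51). Ahrr lay at 9.79 to 10.39 in WT (median 10.12) and 9.95 to 10.93 in the samples labelled Ahrr-/- (median 10.37), but at 5.0212 to 5.79 in Ahr-/- (median 5.25), with 14 counts in all 6 samples together. Neither targeted transcript was thus lower in its own knockout, and Ahrr was nearly absent from Ahr-/-. A gene-level count over all exons does not check a deletion of part of a gene. The other AHR targets gave a second view of the labels: Cyp1b1, Tiparp and Nqo1 were higher in WT than in Ahr-/- by 4.07, 2.601 and 1.82 on the log2 scale (limma, adjusted p = 1.927e-08, 1.558e-07 and 1.266e-07), and all 4 tested of the 5 listed targets, Ahrr included, were called. Between WT and the samples labelled Ahrr-/-, limma called 0 of these 4 targets, 0 had an unadjusted p below 0.05, and voom on the recovered counts called 4 genes among all 11546. None of these values showed the absence of Ahrr. Every direction drawn from the samples labelled Ahrr-/- rests on the label alone.

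Of the 8 eosinophil markers, Siglecf, Il5ra, Alox15, Ccr3, Prg2 and Epx had reads in all 18 samples. The granule genes Epx, Prg3 and Ear2 were sparse, with at most 22 counts of Epx in any sample, and with Prg3 at 0 in 6 samples and Ear2 at 0 in 1, while Prg2 reached 983 counts. Alox15 reached 33924 counts and Ccr3, the receptor through which eotaxins recruit eosinophils, reached 18113. Markers of other cells were present as well. Because RNA was measured in bulk, fewer cells of a type and less RNA per cell cannot be told apart.

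Compared per kb of exon, the chemokine transcripts spanned nearly 3 orders of magnitude. Cxcl2 stood first, with 16772 ± 6157 normalized counts per kb (SD, n = 18), and was above Cxcl3 in 18 of 18 samples. The order of Cxcl3 (5788 ± 4507) and Ccl6 (5119 ± 2279) depended on genotype, since Cxcl3 was the higher in all 6 WT samples and all 6 samples labelled Ahrr-/- and Ccl6 in all 6 Ahr-/- samples. Ccl3 (3016 ± 1884), Ccl4 (1108 ± 621) and Cxcl10 (380.1 ± 191) followed in that order in every sample. Then came Ccl9 at 129 ± 51.1, which was above Ccl28 in 16 of 18 samples. Ccl28 (60.0 ± 42.6) was above Cxcl1 (58.3 ± 39.1) in 4 of 6 WT samples and 4 of 6 labelled Ahrr-/-, but in 1 of 6 Ahr-/- samples. Cxcl16 had the lowest mean, at 17.6 ± 9.42, and was below Cxcl1 in 16 of 18 samples. In Ahr-/- the order changed, as Cxcl3 moved from the second to the fifth place with 1050.1 ± 405 per kb, below Ccl6, Ccl3 and Ccl4. Cxcl1 stood above Ccl28 there on average (93.0 against 30.54) and near Ccl9 (91.5), which was the higher in 4 of 6 Ahr-/- samples.

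**Figure D1:**
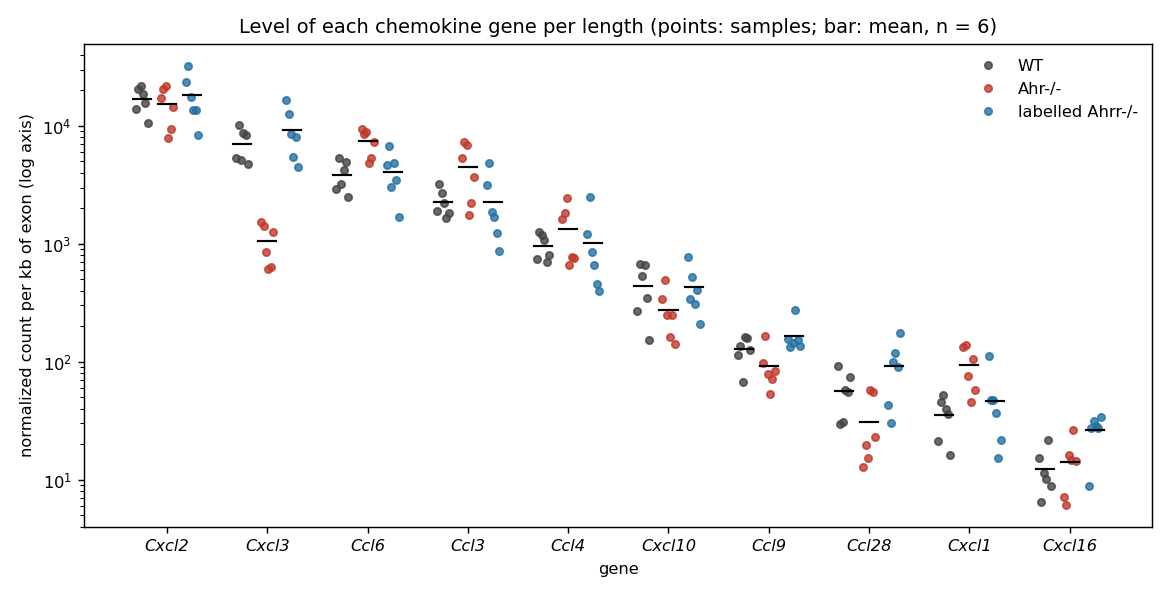
Normalized count per kb of exon for each chemokine gene (log axis), with 1 point per sample and a bar at the mean of each genotype (n = 6). Cxcl2 was the highest in all 3 genotypes, with means of 16894, 15239 and 18182, and Cxcl3 stood apart in Ahr-/- at a mean of 1050.1 against 7059 in WT and 9254 in the samples labelled Ahrr-/-.

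Together the 10 genes took 0.331% to 0.943% of all counts of a sample (median 0.623%), with the lowest share in Ahr-/- M1 and the highest in the sample F2 labelled Ahrr-/-. Cxcl2 alone made up 59.5% to 74.4% of these chemokine counts. The sum over the 10 genes therefore mostly followed Cxcl2. It ranged from 31083 to 60759 normalized counts in WT, from 24824 to 61818 in Ahr-/- and from 25118 to 89086 in the samples labelled Ahrr-/-, with overlap between all 3 genotypes. The total chemokine RNA thus overlapped between genotypes, with the widest range in the samples labelled Ahrr-/-, while single genes moved in opposite directions. Differences in this total were not tested.

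The comparison of WT with Ahr-/- asks which transcripts depend on AHR. Of the 10 chemokine genes, 4 were called at an adjusted p below 0.05 (limma), against 8.84% of all 11346 genes tested. The 10 genes were chosen with earlier results of these data known. Here and in the comparisons below, the share over all genes is therefore a description and no test of the set. Cxcl3 was the 1 gene called as higher in WT, where 3.68% of all genes were so called, and Cxcl1, Ccl3 and Ccl6 were the 3 called as higher in Ahr-/-, where 5.16% were. The values of the groups did not overlap for 1 of the 10, Cxcl3, and for 4.51% of all genes. The median difference over the 10 genes was 0.07 on the log2 scale, against 0.00 over all genes tested, so the directions balanced out. Without WT F3 and Ahr-/- F3, Cxcl3 and Cxcl1 were called and the adjusted p of Ccl3 and Ccl6 rose to 0.102 and 0.0514. Their WT minus Ahr-/- differences went from -0.83 and -0.95 to -0.73 and -0.85, with 586 instead of 1003 genes called in all.

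WT was then compared with the samples labelled Ahrr-/-, which share the WT controls with the first comparison. Limma called 0 of the 10 chemokine genes, and 0.0779% of all 11546 genes tested. In the direction of WT, 0 of the 10 and 0% of all genes were called, and in the direction of the samples labelled Ahrr-/- 0 of the 10 and 0.0779%. No chemokine gene had groups that did not overlap (0 of 10, against 0.459% of all genes). At an unadjusted p below 0.05 there was 1 chemokine gene, Cxcl16, and limma voom on the recovered counts called 0 of the 10 and 4 genes in all. Limma also called 0 of the 10, and 4 genes in all, without F3, M1 and M3 labelled Ahrr-/-. The WT difference of Ccl28 from the samples labelled Ahrr-/- was -0.03 there, against -0.50 with these libraries. The intervals were wide enough to allow differences of some size. For Cxcl3, for example, the difference of WT from the samples labelled Ahrr-/- was -0.31 with a 95% interval from -0.93 to 0.31. It was -0.77 without F3, M1 and M3 labelled Ahrr-/- and ran from -0.45 to -0.15 with 1 library left out.

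Ahr-/- and the samples labelled Ahrr-/- were also compared directly, since separate comparisons with WT do not show whether they differ from each other. Here limma called 6 of the 10 genes, against 14.9% of all 11474 genes tested. Cxcl1, Ccl3 and Ccl6 were the 3 higher in Ahr-/-, where 6.84% of all genes were called, and Cxcl3, Ccl9 and Ccl28 the 3 higher in the samples labelled Ahrr-/-, where 8.04% were. The groups did not overlap for 1 of 10, again Cxcl3, and for 4.61% of all genes. Without the samples F3, M1 and M3 labelled Ahrr-/-, 4 of the 10 were called and the adjusted p of Cxcl1 and Ccl9 rose to 0.135 and 0.105. The difference of Cxcl1 went from 0.604 to 0.592 and that of Ccl9 from -0.76 to -0.59, while the number of all genes called went from 1708 to 626.

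**Figure D2:**
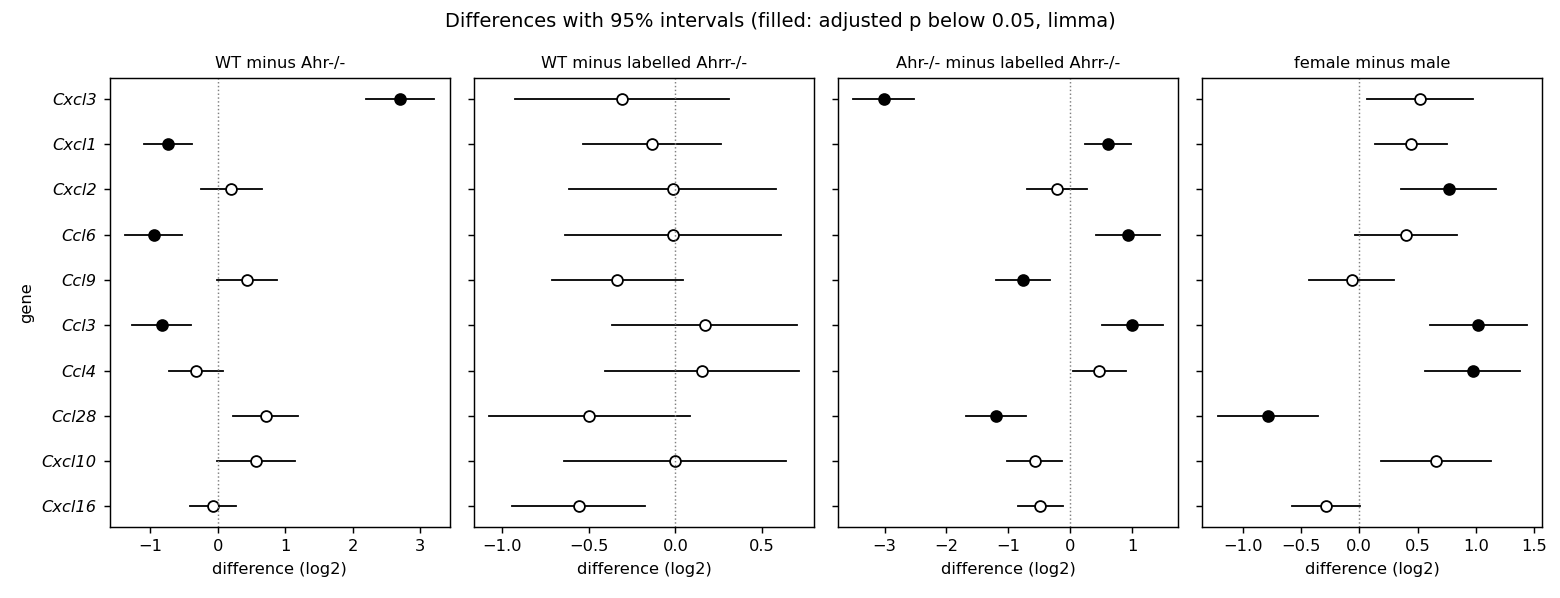
Difference in expression of each chemokine gene (log2 scale) with its 95% interval for the 3 comparisons of genotypes and for female minus male, with filled points where the adjusted p was below 0.05 (limma). Cxcl3 lay at 2.70 in WT minus Ahr-/- and at -3.01 in Ahr-/- minus the samples labelled Ahrr-/-, and no point was filled in WT minus the samples labelled Ahrr-/-.

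Cxcl3, Cxcl1 and Cxcl2 lie on the plus strand of chromosome 5, with Cxcl3 at chr5:90786103-90789600, Cxcl1 at chr5:90891241-90893115 and Cxcl2 at chr5:90903871-90905938 of GRCm38. Cxcl1 begins 101640 bases after the end of Cxcl3, and Cxcl2 begins 10755 bases after Cxcl1. All encode ligands of Cxcr2, the main chemotactic receptor of neutrophils. Their promoters are shown because the neighbouring genes differed in how they varied with genotype. The sequences run 5′ to 3′ from 250 bases before to 50 bases after the RefSeq start of each gene (GRCm38.p6, plus strand), at chr5:90785851-90786150 for Cxcl3, chr5:90890995-90891294 for Cxcl1 and chr5:90903649-90903948 for Cxcl2. Capitals mark the matches to the motifs searched.
Cxcl3: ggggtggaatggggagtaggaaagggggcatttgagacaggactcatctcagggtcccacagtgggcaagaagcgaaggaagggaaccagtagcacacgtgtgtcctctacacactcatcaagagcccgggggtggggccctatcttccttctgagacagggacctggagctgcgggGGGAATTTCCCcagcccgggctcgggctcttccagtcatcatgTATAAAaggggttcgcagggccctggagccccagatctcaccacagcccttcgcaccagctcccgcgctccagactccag
Cxcl1: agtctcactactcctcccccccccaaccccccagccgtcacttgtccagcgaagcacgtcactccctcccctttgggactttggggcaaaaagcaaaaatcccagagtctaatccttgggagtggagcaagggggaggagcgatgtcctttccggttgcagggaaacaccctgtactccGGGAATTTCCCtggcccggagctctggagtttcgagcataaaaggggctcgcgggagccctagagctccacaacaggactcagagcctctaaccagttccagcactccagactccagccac
Cxcl2: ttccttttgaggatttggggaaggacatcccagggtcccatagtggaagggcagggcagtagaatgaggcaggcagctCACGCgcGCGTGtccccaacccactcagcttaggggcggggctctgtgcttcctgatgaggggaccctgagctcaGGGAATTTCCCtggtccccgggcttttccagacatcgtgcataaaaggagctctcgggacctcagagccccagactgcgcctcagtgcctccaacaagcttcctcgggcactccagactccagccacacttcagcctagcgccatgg

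The motifs searched, on both strands, were the core of the AHR response element (GCGTG), the TATA box (TATAAA), the NF-kB motif and the core of the interferon-stimulated response element (GAAANNGAAA). They were found in 32.4%, 13.6%, 8.46% and 3.44% of 32851 promoters of the same length. A promoter was in the table for 8 of the 10 genes, all but Ccl4 and Cxcl16, and 5 of these 8 held the NF-kB motif. The Cxcl3, Cxcl1 and Cxcl2 promoters each held 1 stretch that matched it on both strands in overlapping positions, which began 73, 71 and 97 bases before the start and read the same in all 3. GCGTG was in 2 of the 8 promoters, Cxcl2 with 2 matches at 172 and 165 bases before the start and Cxcl10 with 1, and was not in these 300 bases of Cxcl3. TATAAA was found in Cxcl3, 30 bases before the start, and in Ccl9. These matches describe letters only, and whether any factor bound there was not tested.

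Cxcl3 gave the clearest contrast among the 10 genes. Its values were 12.25, 12.74 and 13.33 in WT (lowest, median and highest, n = 6), 9.41, 10.12 and 10.66 in Ahr-/- and 12.18, 13.05 and 14.03 in the samples labelled Ahrr-/-. All 6 Ahr-/- samples lay below all 12 samples of the other genotypes, which overlapped each other. The difference between WT and Ahr-/- was 2.70 ± 0.24 on the log2 scale (SE, limma, adjusted p = 1.911e-06), or 6.72-fold in mean normalized count. Among 11346 genes it was the 12th largest difference in either direction. Against the samples labelled Ahrr-/-, Ahr-/- was lower by a difference of -3.01 ± 0.23 (adjusted p = 1.353e-06), an 8.81-fold lower mean count. Leaving out single libraries kept the WT and Ahr-/- difference between 2.59 and 2.82.

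Cxcl1, although its gene lies beside Cxcl2 and its protein acts on the same receptor, went the other way and at a far lower level. Its values were 5.9999, 6.48 and 6.71 in WT, 6.61, 7.16 and 7.59 in Ahr-/- and 5.97, 6.55 and 7.36 in the samples labelled Ahrr-/-, from 146, 592 and 330 counts per group in all. Of the Ahr-/- samples, 5 of 6 were above every WT sample. Ahr-/- exceeded WT by 0.74 ± 0.17 (adjusted p = 0.01103), or 2.65-fold in mean count, and exceeded the samples labelled Ahrr-/- by 0.60 ± 0.18 (adjusted p = 0.03435). The latter call was lost without Ahr-/- F1, F2, M2 or M3 (adjusted p = 0.0743, 0.0758, 0.0831 and 0.0661) and without F3, M2 or M3 labelled Ahrr-/- (0.0725, 0.0584 and 0.0731). With no minimum mean and with no sex term it was 0.063 and 0.103. For genes this low the variance-stabilized scale shrinks differences, and WT minus Ahr-/- was larger in size on recovered counts, at -1.37 on log2(normalized count + 1) and -1.44 by voom.

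Cxcl2 did not pass the test between genotypes in the main fit. Its values were 14.28, 14.96 and 15.31 in WT, 13.86, 14.85 and 15.31 in Ahr-/- and 13.94, 14.81 and 15.87 in the samples labelled Ahrr-/-, so that all 3 groups overlapped. WT minus Ahr-/- was 0.20, with a 95% interval from -0.25 to 0.66 (adjusted p = 0.602). This difference ran from 0.09 to 0.33 with 1 library left out and from 0.19 to 0.47 under the other alternatives, without a call. Ahr-/- minus the samples labelled Ahrr-/- was -0.22 (limma, adjusted p = 0.534) and passed with quantile normalization (-0.56, adjusted p = 0.0263). Over windows of 75 bases, 3.82% of the Cxcl3 transcript and 1.94% of the Cxcl2 transcript read identically in both genes, so the division of reads between them is uncertain at least over that share, and stretches that differ by a mismatch were not examined. The Cxcl1 transcript shared 0 such windows with any other gene.

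**Figure D3:**
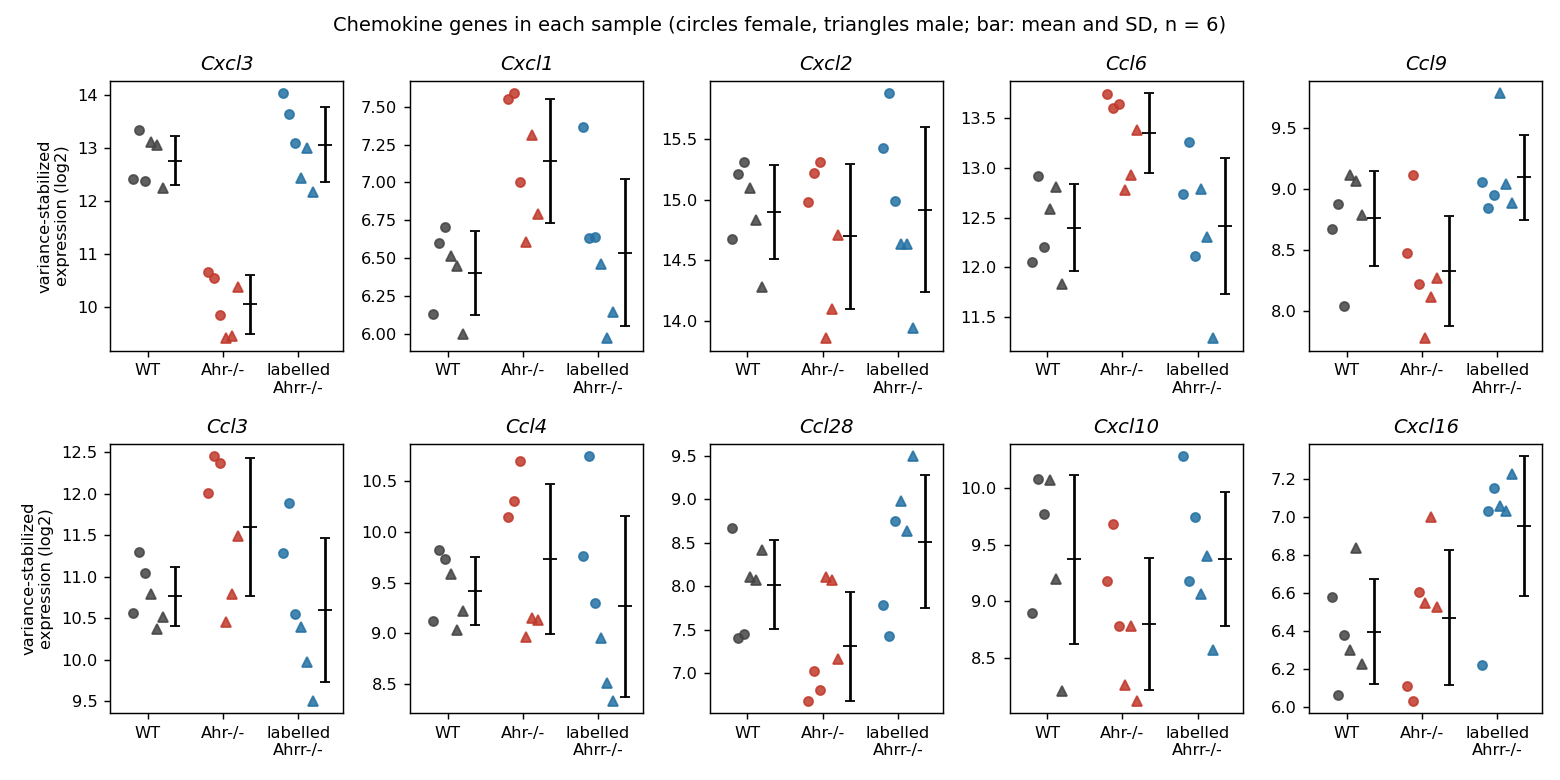
Variance-stabilized expression (log2) of each chemokine gene in every sample, with circles for females, triangles for males and bars for the mean and SD of each genotype (n = 6). The 6 Ahr-/- samples of Cxcl3 (9.41 to 10.66) sat below all others, while for Ccl6 4 of the 6 WT samples lay below every Ahr-/- sample.

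All CC genes followed here except Ccl28 form a cluster on chromosome 11. Ccl9 at chr11:83572919-83578636, Ccl6 at chr11:83587882-83593087 and Ccl3 at chr11:83647844-83649355 lie on the minus strand, and Ccl4 at chr11:83662584-83664683 on the plus strand. Ccl3 and Ccl4 encode the macrophage inflammatory proteins 1-alpha and 1-beta. Ccl6 and Ccl9 are rodent chemokines that act through Ccr1. Gaps of 9245, 54756 and 13228 bases separate Ccl9 from Ccl6, Ccl6 from Ccl3 and Ccl3 from Ccl4 in the GENCODE annotation. In RefSeq, Ccl4 begins farther upstream and overlaps Ccl3 by 755 bases, so how reads there were assigned is uncertain. The Ccl3 and Ccl6 promoters are shown because both genes were higher in Ahr-/-, at chr11:83649329-83649628 and chr11:83593038-83593337 (GRCm38.p6, RefSeq, minus strand, 5′ to 3′ along the gene). None of the 4 motifs was found in them, so they hold no capitals.
Ccl3: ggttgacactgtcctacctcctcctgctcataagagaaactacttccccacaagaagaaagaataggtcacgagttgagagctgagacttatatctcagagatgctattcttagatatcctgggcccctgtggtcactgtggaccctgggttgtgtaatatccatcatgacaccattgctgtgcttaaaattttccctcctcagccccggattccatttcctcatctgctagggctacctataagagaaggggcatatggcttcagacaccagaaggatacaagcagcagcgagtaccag
Ccl6: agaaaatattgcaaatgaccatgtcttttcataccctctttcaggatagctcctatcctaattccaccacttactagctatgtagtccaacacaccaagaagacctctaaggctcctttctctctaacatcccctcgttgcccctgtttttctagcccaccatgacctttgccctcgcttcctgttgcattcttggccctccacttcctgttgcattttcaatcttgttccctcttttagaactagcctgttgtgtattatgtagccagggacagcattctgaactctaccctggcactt

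Ccl6 was the most abundant CC chemokine transcript per kb. Its gene overlaps E230016K23Rik on the opposite strand over 5206 bases. That gene had 171 to 965 counts per sample, and 0 windows of 75 bases of the Ccl6 transcript occur in transcripts of another gene. Its values were 11.83, 12.39 and 12.92 in WT, 12.78, 13.49 and 13.75 in Ahr-/- and 11.29, 12.52 and 13.26 in the samples labelled Ahrr-/-. Of the Ahr-/- samples, 5 of 6 lay above every WT sample and 4 of 6 above every sample labelled Ahrr-/-. Ahr-/- exceeded WT by 0.95 ± 0.20 on the log2 scale (limma, adjusted p = 0.006769), or 1.93-fold in mean count, and the samples labelled Ahrr-/- by 0.93 ± 0.24 (adjusted p = 0.02257), or 1.82-fold. The latter call was lost without Ahr-/- F1 or M3 (adjusted p = 0.0531 and 0.0616) and with no sex term (0.0587). No other library, left out alone, ended either call.

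Ccl3 had values of 10.37, 10.68 and 11.31 in WT, 10.46, 11.75 and 12.46 in Ahr-/- and 9.50, 10.47 and 11.89 in the samples labelled Ahrr-/-. The groups overlapped, with 4 of 6 Ahr-/- samples above every WT sample. Ahr-/- exceeded WT by 0.83 ± 0.21 (adjusted p = 0.01984), or 2.01-fold in mean count, and the samples labelled Ahrr-/- by 0.999 ± 0.23 (adjusted p = 0.01329), or 1.98-fold. The call against WT was lost without WT F3 or without Ahr-/- F2, F3 or M3 (adjusted p = 0.0520, 0.0529, 0.0534 and 0.0558), with no sex term (0.109) and with all 18 samples in the fit (0.0550). The direct comparison of the knockouts lost its call with no sex term (0.128). The Ahr-/- females, at 12.01 to 12.46, held the highest values of this gene.

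Ccl4, the neighbour of Ccl3, had 9.04, 9.40 and 9.82 in WT, 8.97, 9.65 and 10.70 in Ahr-/- and 8.33, 9.13 and 10.75 in the samples labelled Ahrr-/-. It was called in no comparison of genotypes. Ahr-/- minus WT was 0.32, with a 95% interval from -0.08 to 0.72. Turned round, WT minus Ahr-/- ran from -0.44 to -0.16 with 1 library left out and was -0.19 without WT F3 and Ahr-/- F3. Without the sample F2 labelled Ahrr-/-, which was the highest of all, the difference between Ahr-/- and the samples labelled Ahrr-/- rose from 0.47 (adjusted p = 0.125) to 0.65 (adjusted p = 0.0127). Without F3, M1 and M3 labelled Ahrr-/- it fell to 0.30 (adjusted p = 0.447).

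Ccl9, the nearest neighbour of Ccl6, differed in the other direction between Ahr-/- and the samples labelled Ahrr-/-, where both were called. Its values were 8.04, 8.84 and 9.11 in WT, 7.78, 8.25 and 9.12 in Ahr-/- and 8.85, 8.997 and 9.79 in the samples labelled Ahrr-/-. In Ahr-/-, 5 of 6 samples lay below every sample labelled Ahrr-/-, and the exception was Ahr-/- F2 at 9.12. The samples labelled Ahrr-/- exceeded Ahr-/- by 0.76 ± 0.21 (limma, adjusted p = 0.02536). Leaving out Ahr-/- F1, M1, M2 or M3 ended this call (adjusted p = 0.0503, 0.0677, 0.0589 and 0.0562). So did leaving out F3, M1 and M3 labelled Ahrr-/- together (limma, adjusted p = 0.105). WT minus Ahr-/- was 0.43 (95% interval -0.02 to 0.87, adjusted p = 0.233). It was -0.08 in females and 0.94 in males, and the interaction with sex was not called.

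Beside the genes that were higher in Ahr-/-, other leukocyte transcripts were higher too. The summed level of 10 neutrophil markers was 56088 to 113776 normalized counts in Ahr-/- and 24246 to 49009 in WT, with no overlap. This was nearly all Retnlg, at 95.9% to 99.3% of the sum in Ahr-/- and 96.2% to 98.5% in WT, and without it the sums overlapped, at 756.2 to 3282 in Ahr-/- and 687.6 to 1082 in WT. Retnlg was higher in Ahr-/- than in WT by 1.21 (limma, adjusted p = 0.004528). Cxcr2, at 0.65 (adjusted p = 0.01984), was the other of 2 called among 6 tested. Ly6g was at 0 in 13, Mpo in 14, Camp in 13 and Elane in 17 of 18 samples, whereas S100a8, S100a9, Ngp and Ltf had reads in all 18, with at most 1186, 1685, 402 and 160 counts. Of 5 eosinophil markers tested, 2 were called and both were higher in Ahr-/-, Prg2 by 2.30 (adjusted p = 3.466e-07) and Alox15 by 0.58 (adjusted p = 0.02305). The summed eosinophil markers ranged from 38502 to 49554 in Ahr-/- and from 24865 to 38209 in WT. What part these shifts had in Cxcl1, Ccl3 and Ccl6 was not tested.

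Beside the epithelial lists, which are given with Ccl28 below, markers of other cell types were tested between WT and Ahr-/-. Limma called 0 of 7 macrophage and dendritic cell markers, 0 of 2 fibroblast, 0 of 1 endothelial, 0 of 2 T cell and innate lymphocyte, 0 of 3 plasma and B cell and 0 of 1 mast cell markers tested. Of these, Jchain alone had an unadjusted p below 0.05, and voom called 989 genes in the whole comparison. Of 5 pancreatic acinar markers, 1 was called, Ctrb1, higher in WT by 2.74 (adjusted p = 0.02058). All 5 had an unadjusted p below 0.05 and were higher in WT, with a median difference of 1.57. Between WT and the samples labelled Ahrr-/-, limma called the neutrophil markers S100a8 and S100a9 but no chemokine gene. Both were higher in the samples labelled Ahrr-/-, by 2.06 and 2.10 (adjusted p = 0.0006671 and 0.0002203). All 11 enterocyte, 8 goblet and Paneth and 5 fibroblast markers tested were higher there too. Their medians were 0.66, 0.73 and 0.95. All but 1 of 8 macrophage and dendritic cell markers were also higher there (median 0.72). All 7 acinar markers were higher in WT (median 1.17). Limma called none of these, and 4, 3, 3, 3 and 4 had an unadjusted p below 0.05. What part these shifts had in Cxcl16 and Ccl28 was not tested.

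Between Ahr-/- and the samples labelled Ahrr-/-, cell markers shifted in both directions. Of 5 eosinophil markers tested, 4 were called by limma and all 5 were higher in Ahr-/- (median 0.75), Prg2 by 2.07 (adjusted p = 1.809e-05), Alox15 by 0.79 (0.03773), Il5ra by 0.75 (0.018) and Siglecf by 0.72 (0.02001). Of 6 neutrophil markers, 3 were called, Retnlg higher in Ahr-/- by 1.29 (adjusted p = 0.00503) and S100a8 and S100a9 higher in the samples labelled Ahrr-/- by 1.73 and 1.69 (0.01027 and 0.003052). All 8 macrophage and dendritic cell markers and all 5 fibroblast markers were higher in the samples labelled Ahrr-/-, with medians of 0.84 and 1.09. Of these, 1 of 8 and 1 of 5 were called, and 5 and 4 had an unadjusted p below 0.05. All 4 endothelial and all 3 plasma and B cell markers tested were higher there too, with medians of 0.54 and 0.20. In each of these lists 1 was called, and 3 and 1 had an unadjusted p below 0.05. The plasma cell gene called was Jchain, with an 11.8-fold higher mean count. What part these shifts had in the 6 chemokine genes called there was not tested.

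Ccl28 encodes a chemokine of mucosal surfaces that is made chiefly by epithelial cells and acts on Ccr3 and Ccr10, and its gene lies apart from both clusters at chr13:119623819-119654359. Its values were 7.40, 8.09 and 8.67 in WT, 6.68, 7.09 and 8.10 in Ahr-/- and 7.43, 8.69 and 9.50 in the samples labelled Ahrr-/-. Between Ahr-/- and the samples labelled Ahrr-/-, 4 of 6 on each side lay outside the range of the other group. The samples labelled Ahrr-/- exceeded Ahr-/- by 1.21 ± 0.23 (limma, adjusted p = 0.004168), or 3.04-fold in mean count. Without F3, M1 and M3 labelled Ahrr-/- the difference of Ahr-/- from the others was -0.80 (adjusted p = 0.0253). WT minus Ahr-/- was 0.71 ± 0.22 and missed the threshold (adjusted p = 0.0612), but passed it without Ahr-/- M1 or M2 (0.0443 and 0.0464).

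Epithelial markers moved in the same comparison as Ccl28. All 8 goblet and Paneth cell markers in the table were higher in the samples labelled Ahrr-/- than in Ahr-/- (limma, 8 of 8 called, median difference 1.61). All 11 enterocyte markers were higher there too, with a median of 1.01, and 5 of 11 were called. Their summed levels were 8832 to 56624 and 5061 to 23615 normalized counts in the samples labelled Ahrr-/-, and 4810 to 9314 and 3479 to 7815 in Ahr-/-. The groups overlapped, since the sample F2 labelled Ahrr-/- lay within the Ahr-/- range for both lists and F1 for the enterocyte list. Krt19 was the most abundant enterocyte marker in every sample, and Fcgbp or Lyz1 the most abundant of the other list. No marker of either list was at 0 in any sample. Between WT and Ahr-/-, 7 of the 8 goblet and Paneth markers were higher in WT, with a median difference of 0.74, and 4 of 8 were called by limma and 6 of 8 had an unadjusted p below 0.05. Of the enterocyte markers 0 of 11 were called and 2 (Epcam and Krt20) had an unadjusted p below 0.05, where voom called 989 genes in all. Summed goblet and Paneth levels were 6577 to 17938 in WT and 4810 to 9314 in Ahr-/-. The part of epithelial RNA in the Ccl28 values was not tested in the fit.

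Cxcl10, an interferon-induced ligand of Cxcr3 on T cells and natural killer cells, lies on the minus strand at chr5:92346638-92348889. Its values were 8.21, 9.49 and 10.08 in WT, 8.12, 8.78 and 9.68 in Ahr-/- and 8.57, 9.29 and 10.28 in the samples labelled Ahrr-/-, with wide overlap. It was called in no comparison of genotypes. WT minus Ahr-/- was 0.57 (95% interval -0.01 to 1.15, limma, adjusted p = 0.226) and ran from 0.35 to 0.76 with 1 library left out. Ahr-/- minus the samples labelled Ahrr-/- was -0.57 (adjusted p = 0.0738), which became -0.70 without the sample F2 labelled Ahrr-/- (adjusted p = 0.0248). Its gene lies wholly within Art3 on the opposite strand. Art3 had 37 to 189 counts per sample, and 3.89% of the Cxcl10 windows of 75 bases also occur in Art3 transcripts. Whether counting used strand was not stated, so reads of that share cannot be assigned.

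Cxcl16 encodes a transmembrane chemokine that binds Cxcr6 and is released by the proteases Adam10 and Adam17. It lies at chr11:70453983-70459984, had the lowest mean of the 10 per kb, and shares 18.6% of its windows with Zmynd15 on the opposite strand. Zmynd15 itself had 25 counts at most. Cxcl16 ranged over 6.06, 6.34 and 6.84 in WT, 6.03, 6.54 and 7.00 in Ahr-/- and 6.22, 7.05 and 7.23 in the samples labelled Ahrr-/-, where 5 of 6 lay above every WT and every Ahr-/- sample. The samples labelled Ahrr-/- exceeded WT by 0.56 ± 0.18, at an unadjusted p of 0.00749 by limma and an adjusted p of 0.542. They exceeded Ahr-/- by 0.48 ± 0.17 (adjusted p = 0.0661). That difference passed the threshold without Ahr-/- F3 (adjusted p = 0.0441) or without the sample F1 labelled Ahrr-/- (0.0151), which lay far below the rest of its group. Without F3, M1 and M3 labelled Ahrr-/- it was 0.36 (adjusted p = 0.352), and the difference from WT was 0.40.

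Sex was compared over all 18 samples with genotype in the fit. Limma called 4 of the 10 chemokine genes, against 3.06% of all 11468 genes tested. Ccl3, Ccl4 and Cxcl2 were the 3 called as higher in females, where 2.46% of all genes were, and Ccl28 was the 1 called as higher in males, where 0.602% were. Ccl3 had 10.55, 11.31 and 12.46 in females (lowest, median and highest, n = 9) and 9.50, 10.46 and 11.49 in males, and Ccl4 had 9.12, 9.82 and 10.75 in females and 8.33, 9.04 and 9.59 in males. Females exceeded males for Ccl3 by 1.02 ± 0.20 on the log2 scale (adjusted p = 0.00978) and for Ccl4 by 0.97 ± 0.19 (adjusted p = 0.01037), and no single library, left out, ended these calls. In Ahr-/- the females lay at 12.01 to 12.46 for Ccl3 and 10.15 to 10.70 for Ccl4, and the males at 10.46 to 11.49 and 8.97 to 9.15. The sexes did not overlap for either gene in Ahr-/- or in the samples labelled Ahrr-/-, but did in WT.

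The other calls by sex rested on narrow margins. Cxcl2 was higher in females by 0.77 ± 0.20 (limma, adjusted p = 0.03643), with values of 14.67, 15.22 and 15.87 in females and 13.86, 14.63 and 15.09 in males (lowest, median and highest, n = 9). Its call was lost in 12 of 18 fits that left out 1 library. These were WT F2, F3 and M3 (adjusted p = 0.0653, 0.0529 and 0.0818), Ahr-/- F1, F2, F3, M1 and M2 (0.0612, 0.0843, 0.0664, 0.0930 and 0.0792) and F1, F2, M2 and M3 labelled Ahrr-/- (0.0619, 0.0787, 0.0557 and 0.0677). Ccl28, at 6.68, 7.43 and 8.75 in females and 7.16, 8.10 and 9.50 in males, was higher in males by 0.78 ± 0.21 (adjusted p = 0.04427) and lost its call in 14 of 18 such fits. They left out WT F2, F3, M2 and M3 (0.0877, 0.0660, 0.0508 and 0.0830), Ahr-/- F1, F2, F3, M1 and M2 (0.0862, 0.0834, 0.0729, 0.1001 and 0.0944) and F1, F2, M1, M2 and M3 labelled Ahrr-/- (0.0808, 0.0909, 0.0592, 0.0546 and 0.0931). Without WT F3 and Ahr-/- F3 together, Cxcl2 and Ccl28 had adjusted p of 0.0904 and 0.105 (limma). Ccl3 and Ccl4 were the 2 chemokine genes called there, among 254 genes called of 11425 tested. Without F3, M1 and M3 labelled Ahrr-/-, 3 chemokine genes were called, among 371 genes called of 11356 tested, and Ccl28 was not (0.0527).

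Cxcl10 and Cxcl1 were not called by sex, with female minus male differences of 0.66 and 0.44 (adjusted p = 0.117 and 0.107). Cxcl10 passed only without WT F1 or WT M1 (0.0377 and 0.0235), and Cxcl1 only without WT F1 (0.0387). Beside the chemokine genes called, 10 of 16 NF-kB subunits and feedback genes were called as higher in females, among them Nfkbia, which encodes the main inhibitor of NF-kB, by 0.85 (adjusted p = 0.007985) and Bcl3 by 0.69 (adjusted p = 0.001067). All 16 had a positive female minus male difference, with a median of 0.67 against -0.01 over all genes tested. The cytokines Tnf, Il6 and Osm (3 of 6 tested) and the immediate early genes Jun, Atf3, Ier3 and Nr4a1 (4 of 11) were called in the same direction. Beside Ccl28, limma called 0 of 11 enterocyte markers, of which 2 (Epcam and Krt20) had an unadjusted p below 0.05, while voom called 340 genes in the whole comparison. All 11 were higher in males, with a median of 0.50. Of 6 neutrophil markers 1 was called, Ltf, higher in females by 0.84 (adjusted p = 0.02099), and 5 of 6 were positive with a median of 0.54, and the 1 mast cell marker tested, Kit, was higher in females by 0.94 (adjusted p = 0.02451). The class II genes H2-Ab1 and H2-Aa, of antigen-presenting cells, were higher in males by 1.34 and 1.48 (limma, adjusted p = 0.04257 and 0.02846). All 8 macrophage and dendritic cell markers tested were higher in males, with a median of 0.76, and 5 had an unadjusted p below 0.05. In Ahr-/- the summed level of the 11 listed was 393.2 to 789.9 normalized counts in females and 2173.8 to 5126.0 in males. What part these shifts had in the calls by sex was not tested.

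Whether the difference between WT and Ahr-/- itself differed by sex was tested as an interaction. Limma called 0 of the 10 chemokine genes, and 0% of 11346 genes. At an unadjusted p below 0.05 there were 3 chemokine genes, Ccl4, Ccl9 and Ccl3, and 533 genes in all, and voom called 0. Ccl3 was higher in Ahr-/- than in WT by 1.31 in females and by 0.35 in males. Ahr-/- minus WT was 0.83 in females and -0.19 in males for Ccl4, and 0.08 and -0.94 for Ccl9. Differences between the sexes in the effect of genotype were therefore not shown. With 3 samples per sex and genotype the intervals of the interaction (WT minus Ahr-/- in females less the same in males) were wide, the widest being that of Cxcl10, from -1.59 to 0.78.

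Next, chemokine genes were compared with each other over the 18 samples after the mean of each genotype and sex was taken away. The permutation chosen beforehand shuffled samples within genotype, across the sexes whose means had been taken away, and so gave p that were too small. The p below are from an exact permutation within genotype and sex (46656 arrangements), chosen after seeing the data. Of 8 relations, 3 passed after Benjamini-Hochberg adjustment, against 4 with the permutation chosen beforehand. Ccl3 and Cxcl2, which lie on different chromosomes, had the highest Pearson r, at 0.870 (exact permutation p = 0.0009, adjusted p = 0.0036), with a Spearman rho of 0.855 (exact permutation p = 0.000814). The neighbours Ccl3 and Ccl4 had an r of 0.840 (exact permutation p = 0.00045, adjusted p = 0.0036) and a rho of 0.849 (exact permutation p = 0.000536). Without the samples F2 and F3 labelled Ahrr-/-, the farthest from the median of Ccl3, these r were 0.834 and 0.735 (exact permutation, adjusted p = 0.0216 and 0.0185). Over the 18 samples together, deviations of Ccl3 thus went along with those of Cxcl2 and Ccl4. These r were not set against those of other gene pairs, so they do not show a link particular to chemokine genes.

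Ccl28 followed Epcam, an epithelial adhesion gene, with an r of 0.858 (exact permutation p = 0.00171, adjusted p = 0.00457) and a rho of 0.814 (exact permutation p = 0.00174). Without WT F1 and the sample F3 labelled Ahrr-/- the r was 0.734 (exact permutation, adjusted p = 0.0412). Cxcl2 and Cxcl3 had an r of 0.612 and a rho of 0.589 (exact permutation p = 0.0338 and 0.0393, adjusted p = 0.0676 and 0.0786), which did not pass. Without WT M3 and the sample M3 labelled Ahrr-/- the r was 0.514 (exact permutation, adjusted p = 0.238), while without WT F3 and Ahr-/- F3, libraries chosen after seeing the data, it was 0.766 and passed (exact permutation, adjusted p = 0.0177). The relation thus depended on the samples used.

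**Figure D4:**
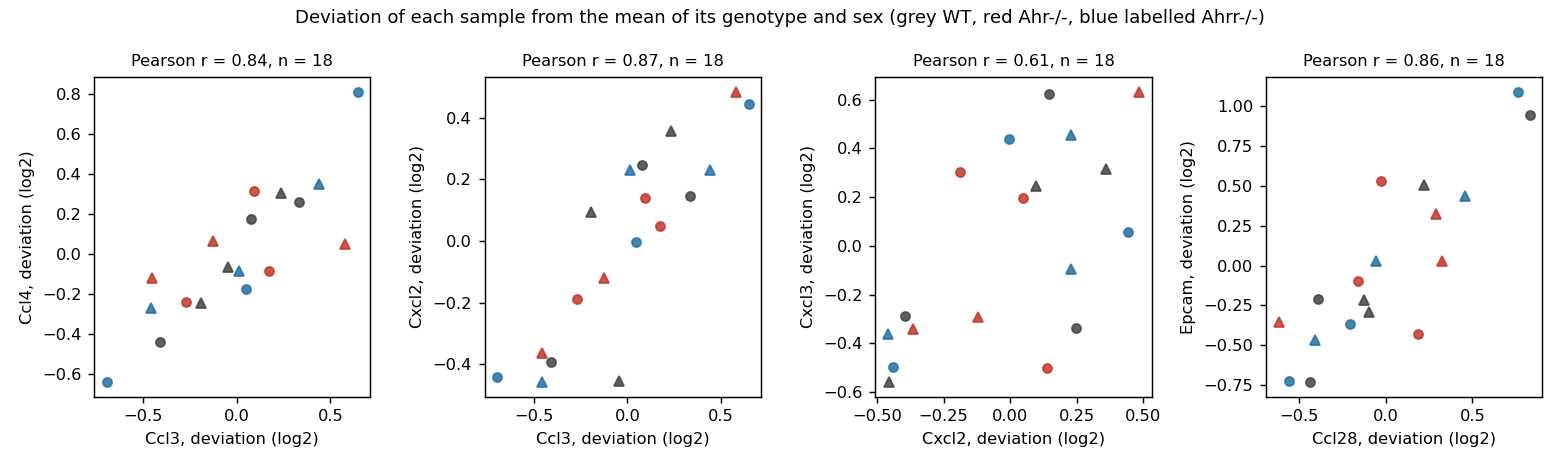
Deviation of each sample from the mean of its genotype and sex (log2) for the 3 relations that passed and for Cxcl2 and Cxcl3, which did not, with grey for WT, red for Ahr-/-, blue for the samples labelled Ahrr-/-, circles for females and triangles for males (n = 18). Points rise together most closely for Ccl3 and Cxcl2 (r = 0.87) and are most scattered for Cxcl2 and Cxcl3 (r = 0.61).

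The other 4 relations did not pass either. Ccl6 and Ccl9 had an r of 0.509 (exact permutation p = 0.0774, adjusted p = 0.124) and a rho of 0.509 (exact permutation p = 0.0645), which was 0.298 without M1 and M3 labelled Ahrr-/-. Cxcl1 with Cxcl3 gave 0.404 and a rho of 0.399 (exact permutation p = 0.175 and 0.166, adjusted p = 0.234 and 0.221), and Cxcl1 with Cxcl2 gave 0.265 and 0.229 (exact permutation p = 0.387 and 0.427, adjusted p = 0.442 and 0.488). Without Ahr-/- F3 and F1 labelled Ahrr-/- they were 0.252 and 0.358. Cxcl10 was set against Irf7, an interferon-induced regulator, with an r of 0.078 and a rho of 0.015 (exact permutation p = 0.777 and 0.962, adjusted alike), and -0.157 without WT M1 and M3. Cxcl1 thus did not pass with either of its neighbours on chromosome 5. Within WT alone its r with Cxcl2 was 0.980 and its rho 0.829 (exact permutation p = 0.0278 and 0.0556, not adjusted over the 24 relations within genotypes), against an r of -0.149 in Ahr-/- and 0.046 in the samples labelled Ahrr-/- (exact permutation p = 0.833 and 1).

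Within single genotypes of 6 samples there were 36 arrangements, so p could not fall below 0.0278, and these p were not adjusted. Ccl3 and Cxcl2 had an r of 0.670 in WT, 0.984 in Ahr-/- and 0.944 in the samples labelled Ahrr-/- (exact permutation p = 0.25, 0.0556 and 0.0556). For Ccl3 and Ccl4 the values were 0.974, 0.436 and 0.949 (exact permutation p = 0.0278, 0.222 and 0.0556), and for Ccl28 and Epcam 0.943, 0.360 and 0.987 (exact permutation p = 0.0556, 0.444 and 0.0278). For Cxcl2 and Cxcl3 they were 0.654, 0.531 and 0.659 (exact permutation p = 0.306, 0.528 and 0.222). Differences between genotypes in these relations were not tested.

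The wider chemokine family was sparse in these cells. Of 40 chemokine ligand genes listed, 38 were in the table and 14 passed the filter in the comparison of WT with Ahr-/-. Beside the 10 followed here, these were Ppbp, Ccl25, Cxcl9 and Cx3cl1. Ppbp, a ligand of Cxcr2 best known from platelets, behaved like Cxcl3, higher in WT than in Ahr-/- by 2.83 ± 0.24 (limma, adjusted p = 1.097e-06) and lower in Ahr-/- than in the samples labelled Ahrr-/- by a difference of -4.11 (adjusted p = 1.558e-10). In all, 2 of the 14 were called as higher in WT and 3 as higher in Ahr-/-. Between Ahr-/- and the samples labelled Ahrr-/-, 3 of 15 were called as higher in Ahr-/- and 4 as higher in the samples labelled Ahrr-/-.

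Among 10 genes listed as chemokine receptors, with Ccrl2 among them, 6 passed the filter and 2 were called between WT and Ahr-/-. Ccr1, which binds Ccl3, Ccl6 and Ccl9, was higher in WT by 1.12 ± 0.20 (limma, adjusted p = 0.002215), and Cxcr2 was higher in Ahr-/- by 0.65. Ccr3 differed by -0.04 (adjusted p = 0.902), and Ccrl2, which binds chemerin and is also induced by NF-kB, had a WT minus Ahr-/- difference of -0.55 (adjusted p = 0.0787). Over the 6 listed genes tested, Ccrl2 included, the median WT minus Ahr-/- difference was -0.20, and 2 of the 6 were higher in WT. The receptors were not tested as a group.

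Inducers of these genes were examined next. Of 16 NF-kB subunits and feedback genes, 1 was called between WT and Ahr-/-, Birc3, higher in WT by 0.62 (limma, adjusted p = 0.04033). Of the 16, 12 had a higher mean in Ahr-/-, with a median of 0.16 over the list, and 5 had an unadjusted p below 0.05. Beside Birc3 these were Bcl3, also higher in WT, and Nfkb1, Nfkbid and Tnfaip3, higher in Ahr-/- by 0.39, 0.59 and 0.66 (adjusted p = 0.0881, 0.0766 and 0.126). Of 6 inducing cytokines tested, 2 were called, and both were higher in Ahr-/-, Il1b by 1.27 ± 0.25 (adjusted p = 0.00432) and Il6 by 1.46 ± 0.40 (adjusted p = 0.03338). Il1b encodes interleukin 1 beta, a strong inducer of Cxcl1, and it was also higher in Ahr-/- than in the samples labelled Ahrr-/-, by 1.297 (adjusted p = 0.002853). What part these cytokines had in Cxcl1 or the other chemokine genes was not tested. Immediate early genes were called in both directions, with Atf3 higher in WT by 1.42 (adjusted p = 3.401e-06) and Nr4a1 higher in Ahr-/- by 0.92 (adjusted p = 0.02689), 2 of 11 in all. Of 8 interferon response genes tested, Usp18 was the 1 called, higher in WT by 0.9955 (adjusted p = 0.0002934).

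Of regulators that act on the chemokine mRNA or protein, 2 of 8 genes for control of mRNA decay and 1 of 2 proteases that shed Cxcl16 were called between WT and Ahr-/-. Zfp36l2, which promotes decay of mRNAs with AU-rich elements, was higher in Ahr-/- by 0.78 ± 0.12 (limma, adjusted p = 0.0006701), and Hnrnpd, which binds the same elements, was higher in WT by 0.37 (adjusted p = 0.03347). Of the proteases, Adam17 was higher in Ahr-/- than in WT by 0.49 (adjusted p = 0.04225) and Adam10 was not called (WT minus Ahr-/- 0.27, adjusted p = 0.0948). Between WT and the samples labelled Ahrr-/-, limma called 0 genes of the lists of ligands, NF-kB, cytokines, decay, shedding, interferon and immediate early genes. At an unadjusted p below 0.05 there were 3 of 15 ligands (Pf4, Ppbp and Cxcl16), 3 of 16 NF-kB genes, 2 of 8 decay genes and 1 of 11 immediate early genes, and 853 of all genes. Voom called 4 genes in the whole comparison.

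The genes most like Cxcl3, Ccl3 and Cxcl1 over the 18 samples, after the mean of each genotype was taken away, were looked up among 11467 tested genes as a description. Unlike in the relations above, the means of the sexes were not taken away. A shared difference by sex therefore enters these r, which are not comparable with those above. Cxcl3 was followed most closely by Neurl3 (Pearson r = 0.944), Wdr37 (0.942) and Gpr55 (0.938). For Ccl3 these were Ninj1 (0.971), Ehd1 (0.959) and 1700017B05Rik (0.957), and for Cxcl1 Top1 (0.890), Mir3058 (0.889) and Srrd (0.879). No gene was named for more than 1 chemokine.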

How the data were processed

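RNA of sorted small intestinal eosinophils was measured in 18 samples, 6 for each of 3 genotypes and 3 of each sex within them. The deposited values were variance-stabilized expression on a log2 scale, which the authors made with DESeq2 from gene counts on GRCm38. The submitters' processing notes list STAR 2.5.2, RSEM 1.3.0 and R 4.0.3. The lowest value was 5.0212, and the transformation was inverted to counts, of which 100.0% were whole within 0.0001. Of 22708 genes, 3062 had no symbol in the table.

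Genes with a mean at least 1 above the lowest value in the fitted samples were tested with limma 3.58.1 (R 4.3.3, mean-variance trend, sex and genotype in the fit), and p was adjusted by Benjamini-Hochberg over all genes tested. The scripts were tested on simulated data. Relations were tested with 100000 permutations within genotype and, added after seeing the data, with all 46656 arrangements within genotype and sex, from which the p in the text were taken, in Python 3.11.15 (numpy 2.4.6, pandas 2.3.3, scipy 1.17.1), and figures were drawn with matplotlib 3.10.9. The alternatives changed the minimum mean (none, or 3 above the lowest value), the scaling, the scale (voom or log2 of recovered counts), the trend, the sex term, a block on replicate label, the samples in the fit and single libraries left out. The settings that left out several libraries together were added after seeing the data.

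The members and lists were chosen with earlier results of these data known. Of the list genes, 4 were not in the table. Named were all 10 chemokine genes, Ahr and Ahrr, of each list at most 4 genes called between WT and Ahr-/- with the largest differences, and the 3 genes most like each called chemokine gene, which are not shown for Ccl6. Other genes were named after their values were seen. No statement of strand in counting was found.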

Additional observations from a re-analysis of the deposited data

Results flagged for a closer look

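In 39 groups of 6 samples, each sample at an end of its group was checked for its distance from the nearest sample, as a share of the range of the group, against Dixon's critical value for that number of samples. Chance flags about 1 in 20 groups, and 2 flags were found. Cxcl16 in the sample F1 labelled Ahrr-/- was the lowest of its group at 6.219, with 7.03 the nearest value and 0.804 of the range between them. Ccl9 in the sample M1 labelled Ahrr-/- was the highest of its group at 9.7879, with 9.06 the nearest value and 0.771 of the range between them. No cause was tested.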

How the results depend on the processing

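Of 902 values of single chemokine genes under the alternatives, 805 kept their direction and their side of the threshold, 59 were weaker, 11 stronger and 27 reversed. All reversals were of differences that were not called. Cxcl3 kept both its calls under every alternative. Counts were lowest for Cxcl1 and Cxcl16, down to 13 and 11, and the effect of sequencing depth was not tested. With 3 samples per sex and genotype, every test of sex within genotype was limited. Except where fewer samples or another set of tested genes made the change, the cause was not tested.

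For WT against Ahr-/-, 553 genes were called with all 18 samples in the fit. Without WT F3 and Ahr-/- F3 (chosen after seeing the data), 586 genes and 2 chemokine genes were. Leaving out 1 library gave 623 to 1124 genes, and WT minus Ahr-/- of Cxcl16 ran from -0.1449 to 0.0136, reversed without Ahr-/- M2.

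For WT against the samples labelled Ahrr-/-, 9 genes were called at first. The number was 4 with no minimum mean, with samples centred on their medians, on log2(normalized count + 1), by voom and without the 3 libraries with most enterocyte RNA, 5 with the stricter minimum and with quantile normalization, and 14 with all 18 samples in the fit. With 1 library left out it was 4 to 25. Reversed were Cxcl10 at 0.0014 with quantile normalization, and Cxcl2, Cxcl10 and Ccl6 at 0.0289, 0.0414 and 0.0295 with centring. Without those 3 libraries Ccl3 and Ccl4 were reversed, at -0.1521 and -0.1341. With 1 library left out, differences ran from -0.2153 to 0.0001 for Cxcl1, from -0.1565 to 0.1218 for Cxcl2, from -0.2226 to 0.1919 for Cxcl10 and from -0.2345 to 0.1408 for Ccl6.

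For Ahr-/- against the samples labelled Ahrr-/-, 828 genes were called with the stricter minimum, 994 genes and 3 chemokine genes with no sex term, and 626 genes without the 3 libraries. Quantile normalization called Cxcl2 as well (-0.56, adjusted p = 0.0263 by limma). With 1 library left out, 818 to 2574 genes and 3 to 8 chemokine genes were called.

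For sex, 163 genes and 2 chemokine genes were called with no minimum mean, and 254 genes and 2 chemokine genes without WT F3 and Ahr-/- F3. Voom called 340 genes and 3 chemokine genes, with Ccl28 at an adjusted p of 0.0518. With 1 library left out, 142 to 733 genes and 2 to 6 chemokine genes were called, and Ccl9 ran from -0.18 to 0.0338. Ccl9 also reversed without the 3 libraries (0.0215) and without WT F3 and Ahr-/- F3 (0.0525). The r of Cxcl2 and Cxcl3, 0.612, passed with the permutation within genotype (adjusted p = 0.0254) but not with the exact permutation within genotype and sex (0.0676), which was added after seeing the data. Without the 2 samples farthest from the median of the first gene of the pair it was 0.514 and that of Cxcl10 and Irf7 was -0.157.

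Samples of different genotypes share only a number. Of 18 pairs with the same number, 6 correlated above 0.1 and 6 correlated best with their own number, with r from -0.592 to 0.473. With the replicate block, 4, 0 and 7 chemokine genes and 918, 4 and 1946 genes were called in the 3 comparisons of genotypes, in the order above. Cxcl16 was the chemokine gene added, between Ahr-/- and the samples labelled Ahrr-/- (adjusted p = 0.0452).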
